A study of Mus musculus with 2 samples.

Results

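The Hedgehog pathway genes described here are 9 genes, namely the ligands Shh and Ihh, the receptor Ptch1, the transducer Smo, the transcription factors Gli1, Gli2 and Gli3, the ligand-binding inhibitor Hhip and the intracellular inhibitor Sufu, of 55450 annotated mouse genes. Accessibility at these genes was measured nucleus by nucleus with snATAC-seq, an assay that counts where a transposase could cut the DNA. Every peak that overlapped a gene body or the 2 kb upstream of it (GENCODE M21, mm10) was taken, which gave 101 of 159560 peaks in the Enl-WT library and 89 of 130027 in the Enl-T1 library. Of these, peaks that overlapped between the libraries were joined into 76 of the 110706 shared regions. Levels are given as CPM (a per-million share of the counts in shared regions of the same nuclei).

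The kidneys came from B6 mouse embryos at E15.5, and there was 1 library in each group. Enl-T1 kidneys carried Enl flox-T1/+ with Wt1 GFPCre/+, so that a Cre under the Wt1 promoter switched on an Enl allele with an in-frame insertion found in Wilms tumour, in the nephron and stromal lineages. Enl-WT kidneys carried Enl +/+ with Wt1 GFPCre/+, and both groups therefore had a Wt1 allele that is inactivated by the knock-in. The sex of the embryos and the number pooled per library are not given in the sources used here. The comparison asks how the mutation alters accessible chromatin at the pathway's genes in each lineage.

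Hedgehog ligands are secreted and bind PTCH1, which otherwise holds SMO inactive. Active SMO releases GLI2 and GLI3 from SUFU in the primary cilium, and GLI activators then switch on targets that include Gli1, Ptch1 and Hhip, while processed GLI3 represses them. In the embryonic kidney and ureter, Shh is known from the medullary collecting duct and ureter epithelium, and the surrounding stroma is the tissue that responds. GLI3 repressor acts in branching of the ureteric bud.

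With 2000 to 100000 counts per barcode, 9472 Enl-WT nuclei and 12635 Enl-T1 nuclei were kept, with a median depth of 14789.5 and 8753 counts. The libraries had 169 barcode sequences in common. Clusters were named from marker lists, which gave 1953 nephron progenitor-like nuclei in Enl-WT and 4390 in Enl-T1, 1710 and 229 later nephron-like, 2961 and 4641 stroma-like, 939 and 1867 ureteric epithelium-like, 769 and 612 endothelium-like and 99 and 155 immune-like nuclei, and the remaining nuclei stayed unnamed. The lists of progenitors, interstitial stroma, ureteric epithelium, endothelium and immune cells each had their highest sum in the class named for them. Endothelial markers, for example, were at 1269 and 1153 CPM in endothelium-like nuclei against at most 357 CPM in the other classes. The early nephron epithelium list was highest in later nephron-like nuclei. Most nuclei of that class were in a cluster named early nephron epithelium (1052 Enl-WT and 184 Enl-T1 nuclei). The others were in a cluster named distal tubule or loop (658 and 45). Progenitor markers summed to 305 CPM in the progenitor-like nuclei of Enl-WT and to 245 CPM in those of Enl-T1, and the part of this difference in the values below was not tested. In later nephron-like nuclei proximal tubule markers summed to 295 CPM in Enl-WT and 192 CPM in Enl-T1, distal tubule or loop markers to 332 and 272 CPM, and early nephron epithelium markers to 597 and 663 CPM. In ureteric epithelium-like nuclei distal tubule or loop markers were at 299 and 283 CPM, the latter above the 272 CPM of later nephron-like nuclei of Enl-T1. Proximal tubule markers in Enl-T1 were at 253 CPM in endothelium-like and 247 CPM in immune-like nuclei, also above the later nephron. Podocyte markers were highest in endothelium-like nuclei, at 527 and 517 CPM, against 347 and 400 CPM in later nephron-like nuclei. In Enl-T1 these lists thus did not set the later nephron apart. Each difference between the libraries in the later nephron therefore stands beside a different mix of tubule markers, whose part in it was not tested. Different clusters held the progenitor-like nuclei of the libraries: one held 1927 Enl-WT and 101 Enl-T1 nuclei, another 1 and 3385. With 1 library per group there is no replicate spread and no test, all intervals are 95% intervals that cover counting error only, and a difference between the libraries cannot be told apart from a difference between the embryos or preparations.

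The sequences that follow carry the regions on which the results turn, read from GRCm38.p6 on the plus strand. The first pair are the shared regions of the members that held a GLI binding motif (TGGGTGGTC on either strand, in capitals), both at Ptch1, itself a GLI target. The others are the 151 bases at the centre of the one shared region of Shh, of an Ihh peak called in Enl-WT, and of the Hhip intronic region that was highest in Enl-T1 stroma, and they held no such motif.
Ptch1, chr13:63573419-63573519: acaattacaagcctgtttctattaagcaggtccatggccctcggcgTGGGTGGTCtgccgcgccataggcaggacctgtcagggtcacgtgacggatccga
Ptch1, chr13:63566389-63566489: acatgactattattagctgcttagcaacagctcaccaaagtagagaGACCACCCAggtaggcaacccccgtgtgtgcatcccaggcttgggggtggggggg
Shh, chr5:28463670-28463820: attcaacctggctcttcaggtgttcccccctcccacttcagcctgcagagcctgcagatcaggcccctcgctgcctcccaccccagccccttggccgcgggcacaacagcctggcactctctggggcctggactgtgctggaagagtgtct
Ihh, chr1:74949876-74950026: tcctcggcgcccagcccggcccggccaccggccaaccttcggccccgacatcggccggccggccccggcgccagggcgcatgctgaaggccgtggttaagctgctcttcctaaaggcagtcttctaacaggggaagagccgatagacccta
Hhip, chr8:80012210-80012360: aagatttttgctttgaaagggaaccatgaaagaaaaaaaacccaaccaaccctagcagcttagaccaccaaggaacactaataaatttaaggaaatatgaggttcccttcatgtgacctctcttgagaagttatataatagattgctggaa

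The GLI motif was in 2 of the 76 member regions (2.63%) and in 1247 of 110665 shared regions on the named chromosomes (1.13%). One motif lay at the 5′-most annotated start of Ptch1 (region chr13:63573146-63574150), and the other in a region over an exon 7.91 kb downstream (chr13:63564531-63566842), which also contains the start that RefSeq gives for Ptch1. RefSeq promoters of GRCm38.p6, from 250 bases before to 50 after the start, were matched for 7 members (Ihh, Gli2, Smo, Hhip, Gli3, Ptch1 and Sufu). None of the 7 held the motif, against 83 of 32851 promoters (0.253%). A match is only a description of the letters in a window of this size.

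Shh, the ligand of the collecting duct, was the most class-restricted member. Neither library had a peak at its start, and its one shared region (chr5:28463234-28464256) lay in an intron 3.51 kb from the start, where the antisense gene 9530036O11Rik is annotated as well. Ureteric epithelium-like nuclei had 39.0 CPM (34.4 to 44.1) of it in Enl-WT and 35.0 CPM (31.1 to 39.3) in Enl-T1. In later nephron-like nuclei it was at 23.8 CPM (21.1 to 26.8) and 19.3 CPM (11.8 to 29.8). In progenitor-like, stroma-like and endothelium-like nuclei it lay between 2.53 and 4.39 CPM in both libraries. The ureteric and later nephron intervals thus lay clear of those of every other class in either library, while the immune-like class, with 2 and 3 counts, was too shallow to place.

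The same order was seen when every nucleus was thinned to 2500 fragments. A Shh fragment was then found in 9.18% (7.39 to 11.2%) of the 915 ureteric epithelium-like nuclei of Enl-WT that were deep enough and in 9.05% (7.73 to 10.5%) of the 1701 of Enl-T1, against 4.96% and 4.11% of later nephron-like and 0.723% and 0.795% of stroma-like nuclei. Before thinning the ureteric shares were 23.1% and 14.5%, at a median depth of 15792 and 9326 counts. Between the pair of ureteric clusters, Shh was at 45.6 CPM in Enl-WT and 40.0 CPM in Enl-T1 in one, and at 33.8 and 29.4 CPM in the other, and their intervals overlapped in each library. The genes whose CPM followed Shh most closely over 19 clusters of at least 100 nuclei were Hao2 (Pearson r = 0.954), Prss8 (0.951), Dclk3 (0.946), Cdh1 (0.943), the cadherin of epithelia, and Cldn23 (0.939), a claudin, each r being over clusters of the same 2 libraries and chosen as the highest of 23680 genes.

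Ihh, the second ligand, is known mostly from bone and gut, and its level depended on how its peaks were called. Enl-WT had 3 peaks and Enl-T1 had 2, none at the start. The Enl-WT peak nearest the start (chr1:74949383-74950520, 1138 bp) met a peak of Enl-T1 only at its edge, so that the joined region spanned 1954 bp of peak in the first library and 792 bp in the second. In Enl-WT that peak was at 23.7 CPM (21.0 to 26.6) in later nephron-like and 17.2 CPM (14.2 to 20.7) in ureteric epithelium-like nuclei, and between 3.22 and 4.25 CPM in progenitor-like, stroma-like and endothelium-like nuclei. The peak nearest the start was thus one of the epithelial classes, while the farthest peak was highest in endothelium-like nuclei, at 12.0 CPM.

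**Figure D1:**
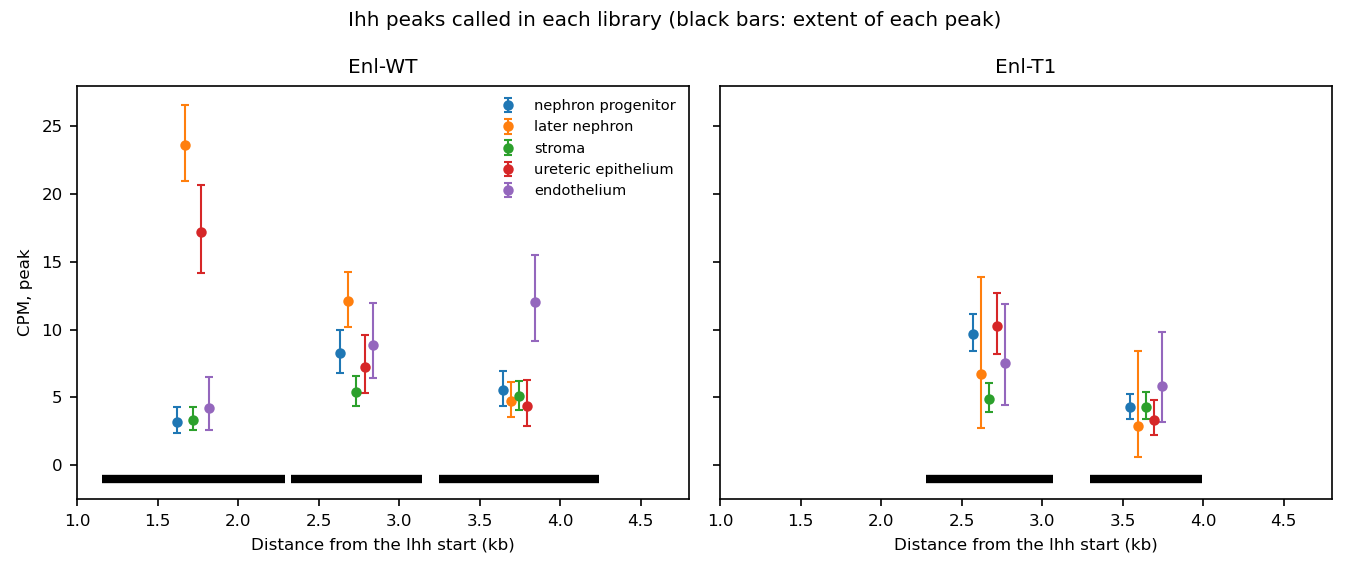
CPM of each Ihh peak (vertical axis) by distance of its centre from the Ihh start in kb (horizontal axis), for each class (colours, shifted sideways for sight) and library (panels), with 95% Poisson intervals and black bars for the extent of each peak. The peak nearest the start, high in later nephron-like (23.7 CPM) and ureteric epithelium-like (17.2 CPM) nuclei, was called in Enl-WT and met a peak of Enl-T1 only at its edge.

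The neighbouring pair of peaks, which overlapped by at least 80% of each, could be compared like for like. In ureteric epithelium-like nuclei its values were 7.24 CPM in Enl-WT and 10.3 CPM in Enl-T1 (log2 ratio of Enl-T1 to Enl-WT 0.50, interval −0.03 to 1.05). In progenitor-like nuclei it was at 8.28 and 9.69 CPM (0.23, −0.11 to 0.57), and in later nephron-like nuclei at 12.1 and 6.74 CPM (−0.84, −2.18 to 0.24), the latter from 14 counts in Enl-T1. All 5 intervals of this pair of peaks contained 0, and counts of Enl-T1 under most of the Enl-WT peak nearest the start were not analysed here. The farthest peak, called in both libraries with widths of 996 and 697 bp, was at 12.0 and 5.85 CPM in endothelium-like nuclei (−1.04, −1.996 to −0.18).

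Ptch1, the receptor and a target, was accessible in every class. Its window was highest in stroma-like nuclei, at 207 CPM (200 to 214) in Enl-WT and 198 CPM (191 to 204) in Enl-T1, and was between 119 and 200 CPM in all other classes. In Enl-WT its stroma and endothelium intervals overlapped, so that these were not told apart. Of its 7 shared regions, the one over the exon with the GLI motif was at 63.1 CPM in progenitor-like and 74.1 CPM in stroma-like nuclei of Enl-WT and an intronic region 5.60 kb from the start at 49.9 and 56.7 CPM, while the region at the 5′-most start was at 11.7 and 17.1 CPM. Most of its signal thus came from regions 5.60 to 10.4 kb inside the annotated gene.

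Smo, the transducer, showed little class preference. Over the first 5 classes it was at 46.7 to 63.3 CPM in Enl-WT and 38.6 to 51.6 CPM in Enl-T1. Levels were highest in stroma in both, though in Enl-T1 the stroma interval overlapped those of other classes. The Smo start region carried most of the signal, with 51.3 of 63.3 CPM in stroma-like nuclei of Enl-WT. Sufu, the inhibitor that binds GLI proteins in the cytoplasm, was between 197 and 295 CPM in the same classes and highest of these in endothelium in both libraries, at 295 CPM (280 to 311) in Enl-WT and 273 CPM (252 to 294) in Enl-T1. An exonic Sufu region 58.4 kb from its start was at 44.8 and 33.9 CPM in endothelium-like nuclei and at most 9.27 CPM in the other 4 classes. An intronic Sufu region 10.1 kb from the start (chr19:46406558-46407505) was in turn at 36.5 CPM in later nephron-like nuclei of Enl-WT and at most 7.62 CPM in the other classes there. In immune-like nuclei Sufu was at 322 CPM (271 to 380) in Enl-WT and 219 CPM (179 to 265) in Enl-T1.

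**Figure D2:**
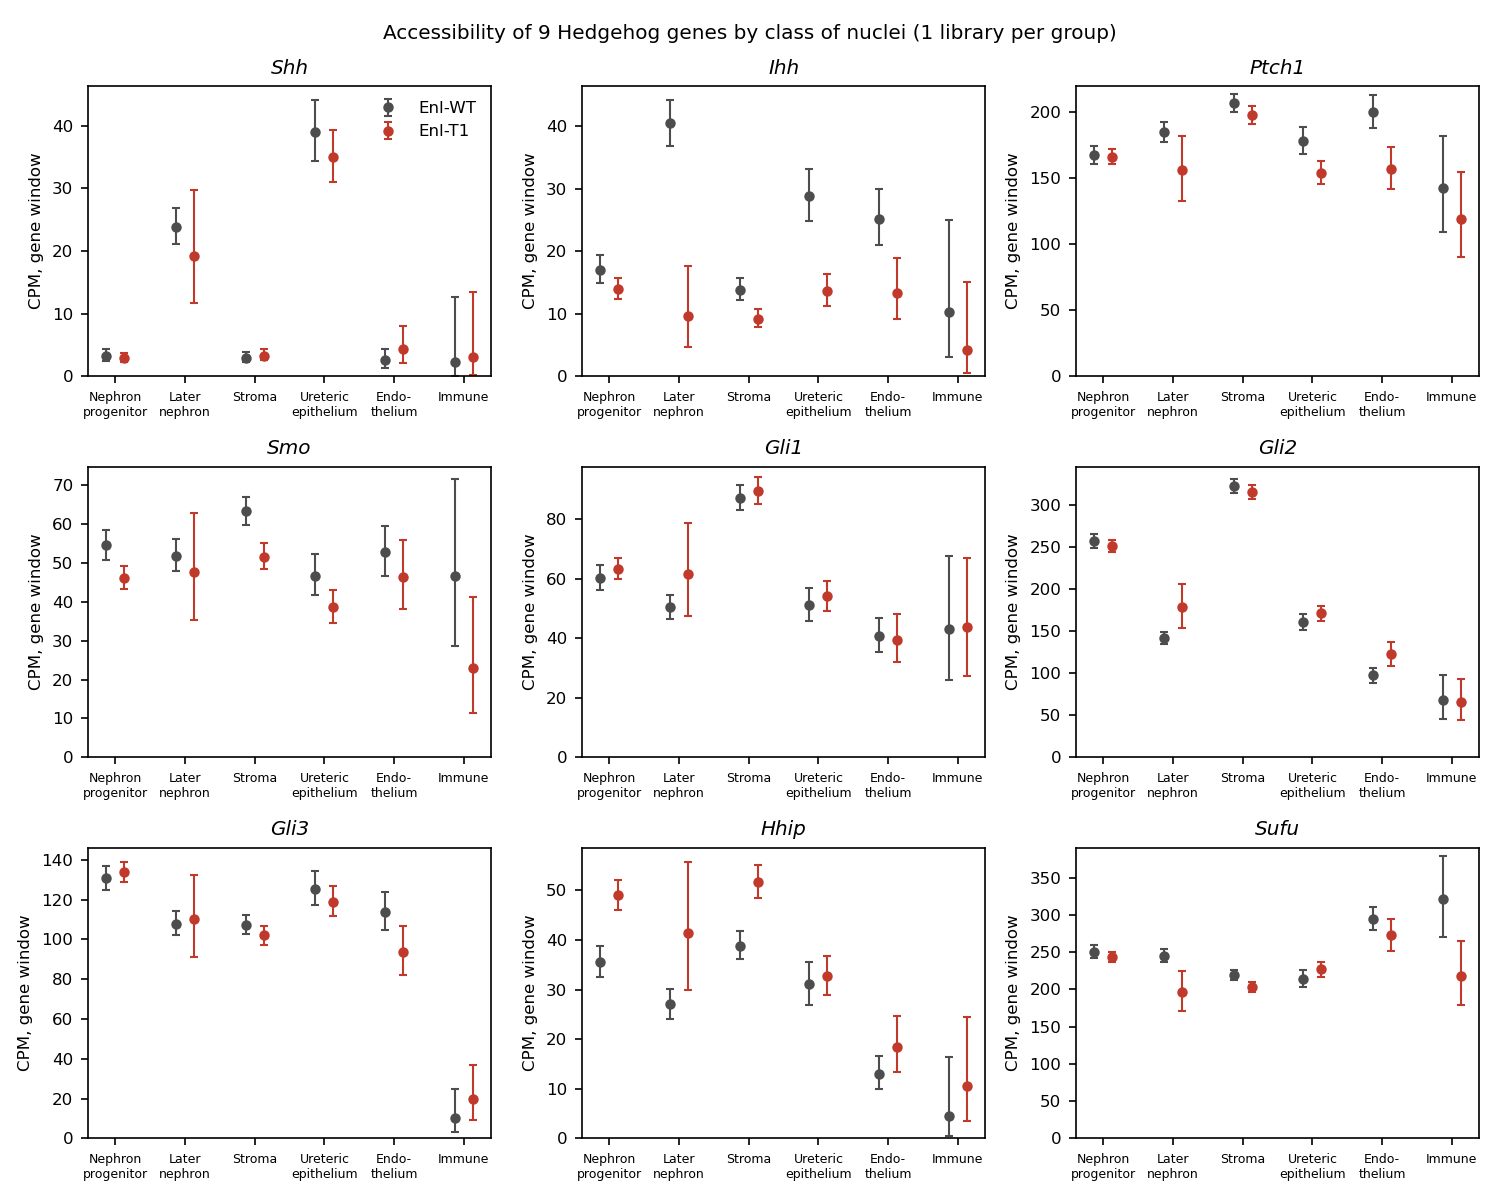
CPM over the window of each gene (vertical axis, from 0) in 6 classes of nuclei (horizontal axis), with 95% Poisson intervals, Enl-WT in grey and Enl-T1 in red, 1 library each. Shh stands out in ureteric epithelium (39.0 and 35.0 CPM), Gli1 and Gli2 in stroma, and Hhip is higher in Enl-T1 in progenitor-like and stroma-like nuclei.

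Gli1, whose transcription reports pathway activity, was highest in stroma-like nuclei, at 87.3 CPM (83.1 to 91.6) in Enl-WT and 89.7 CPM (85.3 to 94.2) in Enl-T1. Progenitor-like nuclei followed at 60.3 CPM (56.3 to 64.6) and 63.3 CPM (59.9 to 66.8), and the remaining classes lay between 39.5 and 61.7 CPM. Gli1 therefore separated stroma from every other class in both libraries, while later nephron and ureteric epithelium, at 50.4 and 51.1 CPM in Enl-WT, did not differ beyond their intervals. The stroma excess was largest at an exonic region 1.73 kb from the start, at 26.6 and 32.7 CPM in stroma against at most 14.6 CPM in the other 4 classes. The genes most like Gli1 over the clusters were Arhgef25 (r = 0.936), Mdk (0.917), AC150274.2 (0.895), Gm28876 (0.884) and Kcnt2 (0.879). For Ptch1 they were Ptms (0.873), A230083G16Rik (0.861), Gm35188 and Arhgap5 (both 0.845) and Slc12a9 (0.821).

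Gli2, the main GLI activator, followed the same order with a wider range. It was at 322 CPM (314 to 331) in stroma-like nuclei of Enl-WT and 315 CPM (307 to 324) in those of Enl-T1, at 257 and 251 CPM in progenitor-like nuclei, and at 97.2 and 122 CPM in endothelium-like nuclei. Gli3, the main repressor, differed less between classes, at 131 and 134 CPM in progenitor-like, 126 and 119 CPM in ureteric epithelium-like and 107 and 102 CPM in stroma-like nuclei, and it was at 10.2 and 19.9 CPM in immune-like nuclei, from 9 and 19 counts. Over 19 clusters, Gli2 and Hhip had r = 0.83, Gli3 and Hhip 0.71, Gli1 and Ptch1 0.62, and Shh and Gli1 −0.41, a description of clusters that share libraries and depth.

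Beneath similar sums, the introns of Gli2 and Gli3 opened at different places in each class. An intronic Gli2 region 19.8 kb from the start was at 45.8 CPM in stroma of Enl-WT and 38.5 CPM in that of Enl-T1, against at most 12.3 CPM in progenitors, and endothelium was next at 18.8 and 28.6 CPM. Gli2 regions at 136 and 151 kb were those of progenitors, at 30.2 and 34.6 CPM in Enl-WT against 7.33 and 6.76 CPM in stroma, and the second was also at 16.3 and 31.8 CPM in later nephron. A Gli2 region at 97.5 kb was at 19.5 and 20.3 CPM in ureteric epithelium and at most 6.10 CPM in the other 4 classes. In ureteric epithelium a Gli2 region was thus accessible that was far lower in progenitors and stroma.

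Gli3 had 2 ureteric regions of this kind, at 155 kb and 210 kb from its start. The first was at 21.0 CPM in ureteric epithelium of Enl-WT and 18.8 CPM in that of Enl-T1, and at most 3.86 CPM in the other 4 classes. The second was at 18.4 and 12.0 CPM there and at most 2.53 CPM elsewhere. A Gli3 region at 125 kb was at 20.1 CPM in endothelium of Enl-WT and 9.82 CPM in that of Enl-T1, and at 10.7 and 7.15 CPM in stroma. The region at the Gli3 start was at 34.7 to 56.9 CPM in the 5 classes of Enl-WT, a narrower range, as a ratio, than at the intronic regions named. Clusters were drawn from these regions among all others, so the class pattern is a description.

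**Figure D3:**
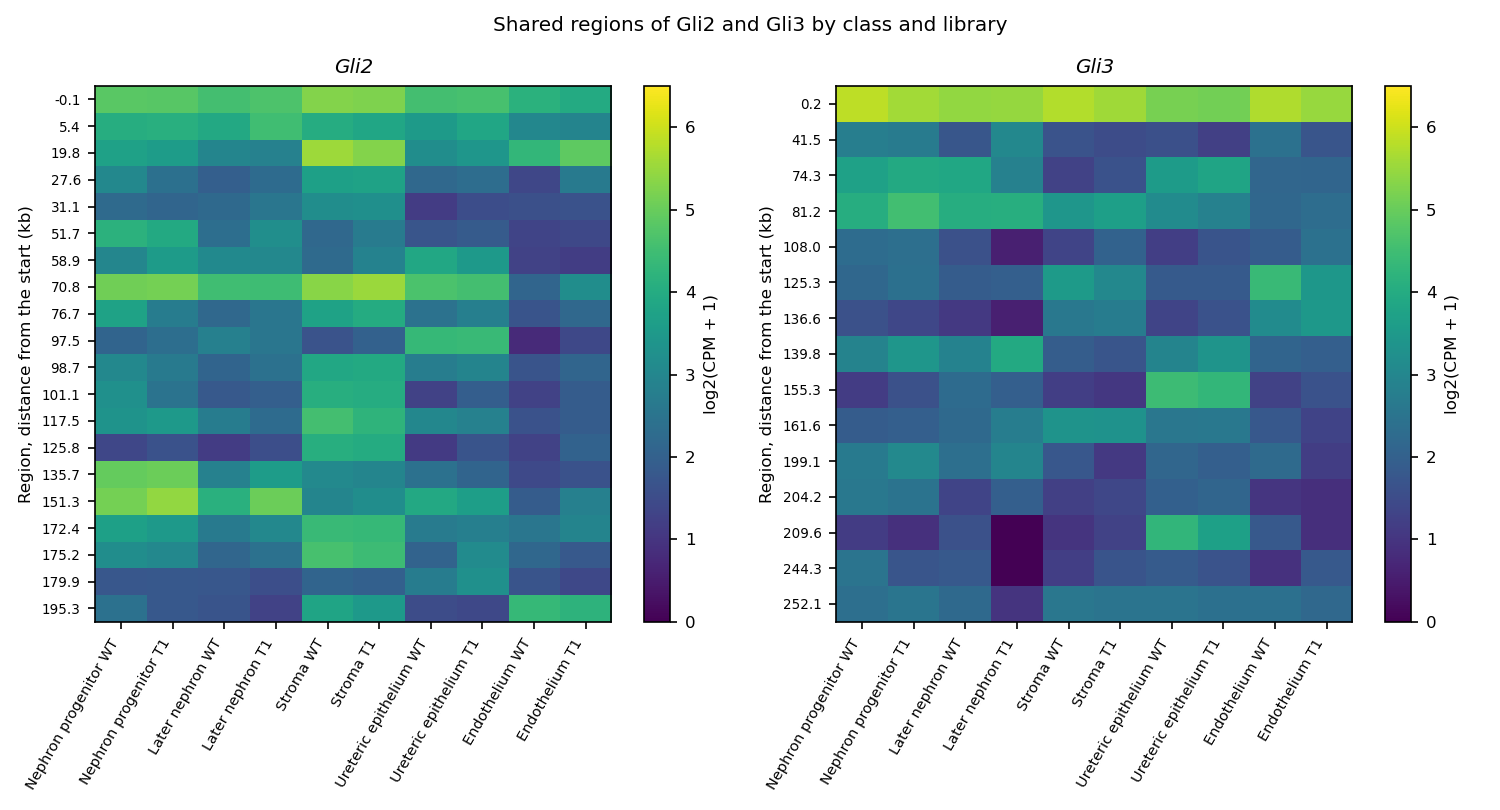
log2(CPM + 1) of each shared region (rows, by distance of its centre from the gene's start in kb) of Gli2 and Gli3 in 5 classes of each library (columns). Start regions are open in all classes, whereas the Gli2 region at 19.8 kb is brightest in stroma, those at 136 and 151 kb in progenitors and that at 97.5 kb, like the Gli3 regions at 155 and 210 kb, in ureteric epithelium.

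Hhip binds ligand at the cell surface and is itself a target. It was highest in stroma-like nuclei of both libraries (38.9 and 51.7 CPM) and lowest among the 5 classes in endothelium (12.95 and 18.4 CPM). Stroma and progenitor intervals overlapped in both libraries, so that these were not told apart. The genes closest to Hhip in pattern were Gm47071 (r = 0.947), Cacnb3 (0.946), Galnt17 (0.939), Stra6 (0.932), the retinol transporter, and Kcnma1 (0.920). Within stroma the main Hhip region was intronic, 45.7 kb from the start (chr8:80011811-80012759), with at most 2.73 CPM in the other 4 classes. The start region of Hhip, by contrast, lay between 6.68 and 18.0 CPM in the 5 classes.

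The libraries were then compared within each class except the immune-like one. The size reported was a log2 ratio of Enl-T1 to Enl-WT past 0.5 in either direction, with at least 100 counts over both libraries. Most members did not reach it. In progenitor-like nuclei 0 of 9 members were higher and 0 lower, where 5.65% of 25975 genes were higher and 5.58% lower. In stroma-like nuclei 0 of 9 were higher (all genes 3.94%) and 1 was lower (all genes 3.15%), and in ureteric epithelium-like nuclei 0 were higher (all genes 4.2%) and 1 lower (all genes 1.89%). In later nephron-like nuclei 1 was higher (all genes 8.96%) and 1 lower (all genes 11.6%), and in endothelium-like nuclei 1 of 8 was higher (all genes 4.19%) and 1 lower (all genes 3.39%). The lower member was Ihh each time and the higher one Hhip. In the immune-like class, left out of these counts, Sufu had a log2 ratio of −0.56 (−0.94 to −0.18), from 283 and 209 counts. The median log2 ratio of the members was −0.04 in progenitors, −0.12 in later nephron, −0.07 in stroma, −0.08 in ureteric epithelium and −0.15 in endothelium, against 0.01, −0.05, 0.00, −0.01 and −0.01 over all genes tested.

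**Figure D4:**
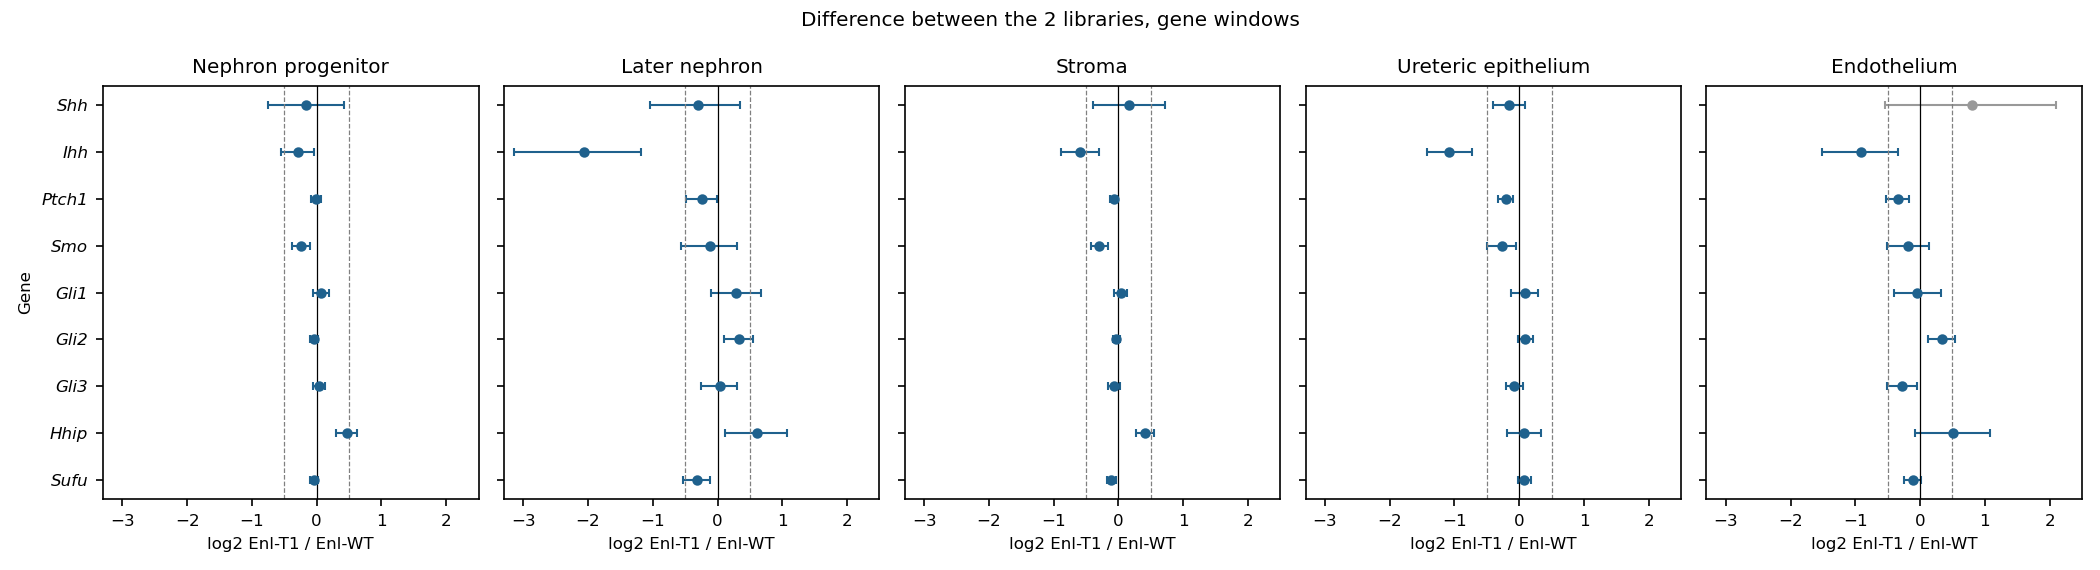
log2 ratio of Enl-T1 to Enl-WT (horizontal axis) of each gene window (rows) in 5 classes (panels), with 95% intervals of counting error, dashed lines at a log2 ratio of 0.5 in each direction and grey for a gene under 100 counts. Hhip lies to the right in 4 classes, Ihh to the left, and the other genes with at least 100 counts lie within the dashed lines.

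Hhip was the member with the steadiest difference. Its window was at 35.5 CPM (32.5 to 38.9) in Enl-WT and 49.0 CPM (46.03 to 52.1) in Enl-T1 in progenitor-like nuclei (log2 ratio 0.46, interval 0.31 to 0.62). In stroma-like nuclei it was at 38.9 CPM (36.1 to 41.8) and 51.7 CPM (48.4 to 55.2) (0.41, 0.27 to 0.55). In later nephron-like nuclei it was at 27.0 and 41.4 CPM (0.62, 0.12 to 1.08, from 86 counts in Enl-T1). In ureteric epithelium it was at 31.1 and 32.7 CPM (0.07, −0.20 to 0.34), and in endothelium at 12.95 and 18.4 CPM (0.51, −0.08 to 1.08). Both of these classes lie outside the nephron and stromal lineages. The ratio in endothelium, from 128 and 88 counts, was nonetheless no smaller than in progenitors or stroma. The libraries' intervals did not overlap in progenitors and stroma, and overlapped in ureteric epithelium, endothelium and, at 29.98 to 55.8 CPM against 24.2 to 30.2 CPM, barely in later nephron. Whether the classes differ in this was not tested.

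In the stroma the Hhip difference was concentrated in the intronic region at 45.7 kb, which was at 12.5 CPM in Enl-WT and 22.1 CPM in Enl-T1 (log2 ratio 0.82, 0.58 to 1.06). The start region was at 10.2 and 13.2 CPM (0.37, 0.09 to 0.65). Of the 4 stroma-like clusters with at least 50 nuclei of each library, the region at 45.7 kb was at 11.4 and 17.1 CPM in one (0.58, 0.12 to 1.04), 32.5 and 37.1 CPM in another (0.19, −0.15 to 0.54), 18.8 and 27.7 CPM in the next (0.55, −0.58 to 1.97) and 2.302 and 0.2999 CPM in the last, from 28 counts and 1 count. The level of this region thus varied more between stroma-like clusters than between libraries, and the lowest cluster held 968 Enl-WT and 412 Enl-T1 nuclei. With these clusters weighted equally the log2 ratio of the whole Hhip window in stroma was 0.17 in place of 0.41. In the same order of clusters, the window's ratios were 0.38 (0.11 to 0.65), 0.06 (−0.20 to 0.31), 0.33 (−0.37 to 1.13) and −0.20 (−0.71 to 0.29). Only the first of these intervals left out 0.

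In progenitor-like nuclei other Hhip regions carried the difference. An intronic region 28.2 kb from the start (chr8:80029333-80030311) was at 1.83 CPM in Enl-WT and 5.58 CPM in Enl-T1 (log2 ratio 1.61, 0.97 to 2.29). Regions at 32.9 and 45.7 kb were at 0.953 and 2.17 CPM (1.19, 0.27 to 2.20) and at 1.06 and 2.43 CPM (interval 0.33 to 2.15). The start region was at 13.3 and 18.0 CPM (0.44, 0.18 to 0.70). In the one progenitor-like cluster with at least 50 nuclei of each library, of which 101 were of Enl-T1, Hhip was at 35.7 and 46.4 CPM (0.38, −0.32 to 1.00) and the region at 28.2 kb at 1.81 CPM from 49 counts and 2.16 CPM from 2 counts, so the higher value of the region came from progenitor-like clusters made up almost wholly of Enl-T1 nuclei.

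**Figure D5:**
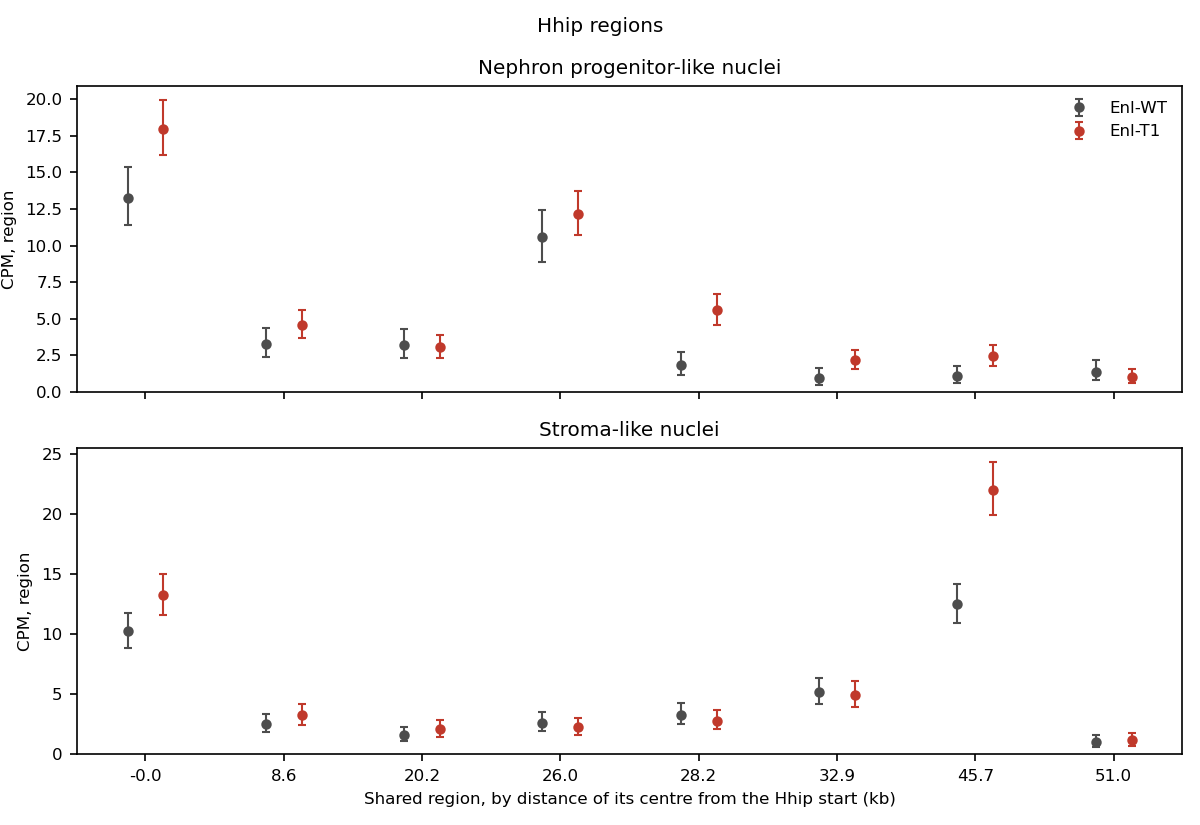
CPM of each shared Hhip region (vertical axis, from 0) by distance of its centre from the start in kb (horizontal axis, evenly spaced), in progenitor-like and stroma-like nuclei, Enl-WT in grey and Enl-T1 in red with 95% Poisson intervals. The region at 45.7 kb separates the libraries in stroma (12.5 and 22.1 CPM) and that at 28.2 kb in progenitors (1.83 and 5.58 CPM).

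In stroma, the other targets Gli1 and Ptch1 had smaller ratios than Hhip (0.41). In ureteric epithelium, Shh and Hhip (0.07) both had intervals that contained 0. Shh in ureteric epithelium had a log2 ratio of −0.16 (−0.41 to 0.09). Gli1 in stroma had one of 0.04 (−0.06 to 0.14), and Ptch1 in stroma one of −0.07 (−0.13 to 0.00). For Gli1 and Ptch1 in stroma, counting error therefore left room for a difference of at most 0.14 in either direction on the log2 scale between these libraries, though Enl-T1 peaks were narrower, and per kb of called peak the Gli1 ratio in stroma was 0.41.

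Ihh sums were lower in Enl-T1 in every class compared, at 40.4 and 9.63 CPM in later nephron, the class whose tubule markers also differed (log2 ratio −2.07, −3.14 to −1.18), 28.8 and 13.6 CPM in ureteric epithelium (−1.08, −1.43 to −0.74) and 13.8 and 9.20 CPM in stroma (−0.59, −0.88 to −0.30). The called peaks of Ihh covered 2950 bp against 1489 bp. Per kb of called peak Ihh was at 13.7 and 6.47 CPM per kb in later nephron, where the direction held. In ureteric epithelium it was at 9.76 and 9.14 CPM per kb, a small difference. The matched pair of Ihh peaks had a log2 ratio of 0.50 there (−0.03 to 1.05). In stroma Ihh was at 4.69 and 6.18 CPM per kb, and the direction turned there, in progenitors and in endothelium.

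Ptch1 peaks in shared regions were also wider in Enl-WT, at 8023 bp against 6923 bp, the same widths for every class. Its sums had log2 ratios of −0.01 in progenitors and −0.07 in stroma, with intervals that contained 0. They were lower in Enl-T1 in later nephron (−0.24, −0.48 to −0.01) and endothelium (−0.35, −0.52 to −0.17). In ureteric epithelium they were at 178 and 154 CPM (log2 ratio −0.21, −0.32 to −0.09). The exonic region with the GLI motif, whose peak took 2310 bp against 1439 bp, was at 62.3 and 41.3 CPM there, or at 27.0 and 28.7 CPM per kb. Around the 5′-most start alone, the ratio in ureteric epithelium was 0.31. In progenitors an intronic Ptch1 region at 1.07 kb was at 6.78 and 9.74 CPM (0.52, 0.16 to 0.89), while one at 45.1 kb was at 6.12 and 3.77 CPM (−0.70, −1.16 to −0.23). Smo was lower in Enl-T1 in all 5 classes, with log2 ratios of −0.12 to −0.29 and intervals that left out 0 in progenitors, stroma and ureteric epithelium, but ratios of −0.10 to 0.07 per kb of called peak. Over single peak pairs its ratios were −0.03 in progenitors, 0.46 in later nephron, 0.16 in stroma, −0.32 in ureteric epithelium and 0.41 in endothelium, all with intervals that contained 0.

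Gli2 and Gli3 sums differed little in progenitors and stroma. Gli2 had log2 ratios of −0.04 (−0.10 to 0.03) in progenitors and −0.03 (−0.08 to 0.02) in stroma, and of 0.33 in later nephron (0.11 to 0.55) and endothelium (0.12 to 0.54). Gli3 had ratios of 0.04 (−0.05 to 0.12) in progenitors and −0.07 (−0.17 to 0.02) in stroma. Sufu had ratios of −0.04 (−0.11 to 0.02) in progenitors and −0.32 (−0.53 to −0.12) in later nephron, where its intronic region at 10.1 kb was at 36.5 CPM in Enl-WT and 16.9 CPM in Enl-T1 (−1.11, −1.89 to −0.43). That class held 229 nuclei of Enl-T1, and proximal tubule markers were at 295 and 192 CPM in it. Within its larger cluster, with 1052 and 184 nuclei, the Sufu region was at 45.8 and 16.2 CPM (−1.50, −2.40 to −0.72).

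Single regions passed 0.5 log2 more often than whole genes, in both directions. In progenitor-like nuclei 9 of 74 member regions with enough counts were higher in Enl-T1 (all regions 16.2%) and 10 were lower (all regions 15%). In later nephron 11 of 48 were higher (all regions 19.1%) and 11 lower (all regions 22.8%). In stroma 7 of 73 were higher (all regions 11.9%) and 6 lower (all regions 9.22%), in ureteric epithelium 4 of 57 were higher (all regions 11.4%) and 5 lower (all regions 5.59%), and in endothelium 2 of 33 were higher (all regions 7.08%) and 5 lower (all regions 10.6%). In the order of these 5 classes, the medians over member regions were 0.01, −0.04, −0.05, 0.04 and −0.16, against 0.02, −0.04, 0.03, 0.02 and −0.04 over all regions.

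Progenitor-like nuclei of Enl-T1 were less accessible at a Gli2 intron 76.7 kb from the start, at 12.3 CPM in Enl-WT and 5.58 CPM in Enl-T1 (log2 ratio −1.15, −1.50 to −0.80), and at a Sufu intron at 82.4 kb, at 15.6 and 6.65 CPM (−1.24, −1.56 to −0.92). In that progenitor-like cluster the 101 nuclei of Enl-T1 had 15.1 CPM at the Gli2 region and 16.2 CPM at the Sufu region, from 14 and 15 counts, against 12.4 and 15.7 CPM in Enl-WT. The low values were thus those of the clusters of Enl-T1 nuclei, which were drawn in part from these same regions. In ureteric epithelium, Gli2 at 175 kb was at 3.20 and 7.84 CPM (1.29, 0.56 to 2.08) and Sufu at 62.2 kb at 3.96 and 7.90 CPM (0.99, 0.32 to 1.71), while Smo at 13.4 kb was at 5.87 and 3.10 CPM (−0.92, −1.70 to −0.16). Stroma had Gli3 at 108 kb at 1.54 and 3.12 CPM (1.02, 0.34 to 1.72), and endothelium had Gli3 at 125 kb at 20.1 and 9.82 CPM (−1.04, −1.75 to −0.38).

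A further 45 genes of the pathway, from ligand release and co-receptors to the cilium and mesenchymal targets, were read in the same way, of which 43 had enough counts in the first 4 classes and 41 in endothelium. Of these, 2 were higher in Enl-T1 (all genes 5.65%) and 0 lower (5.58%) in progenitors. In later nephron 6 were higher (8.96%) and 1 lower (11.6%), and in stroma 1 (3.94%) and 0 (3.15%). In ureteric epithelium 3 were higher (4.2%) and 0 lower (1.89%), and in endothelium 3 (4.19%) and 1 (3.39%). The share lower was under that of all genes in each class. The share higher was above it in later nephron, ureteric epithelium and endothelium, and under it in progenitors and stroma. With so few genes called, no result is read from these shares. The medians were between −0.05 and 0.06. Tbx18, Tshz3 and Ccnd1 of this list are also in the marker lists that named the classes.

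Of the genes of the list past 0.5 log2, Osr2, a transcription factor of mesenchyme, was at 25.4 CPM in Enl-WT and 39.2 CPM in Enl-T1 in progenitors (log2 ratio 0.62, 0.44 to 0.81). Foxf2, a Hedgehog-responsive forkhead factor, was at 8.87 and 13.1 CPM in progenitors (0.56, 0.25 to 0.88) and at 4.57 and 9.96 CPM in ureteric epithelium (1.12, 0.50 to 1.78). Grem1, the BMP antagonist, was higher in stroma at 6.38 and 10.4 CPM (0.70, 0.36 to 1.05), in ureteric epithelium at 9.14 and 18.8 CPM (1.04, 0.60 to 1.49) and in later nephron at 12.8 and 32.3 CPM (1.33, 0.74 to 1.88). Bmp4, a growth factor that GREM1 binds, was lower in later nephron at 91.2 and 47.2 CPM (−0.95, −1.39 to −0.54), where distal tubule or loop markers were at 332 and 272 CPM.

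In later nephron, Scube2, which helps release lipid-bound ligand, was at 20.4 and 31.8 CPM (0.64, 0.07 to 1.17), the kinase gene Dyrk2 at 52.0 and 81.9 CPM (0.65, 0.31 to 0.98) and Foxl1 at 13.3 and 21.7 CPM (0.71, 0.00 to 1.35). Dyrk2 was also higher in ureteric epithelium, at 44.7 and 63.8 CPM (0.51, 0.30 to 0.72). In endothelium, Gpc3, a glypican that competes for ligand, was at 24.3 and 40.1 CPM (0.72, 0.32 to 1.12) and Sall1 at 13.3 and 24.7 CPM (0.90, 0.36 to 1.43). The named genes were picked by the size of their ratios, in classes in and outside the lineages in which Wt1-driven Cre is reported to act. What their values depend on was not tested.

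Peaks called in 1 library alone made up 24 of the 101 member peaks of Enl-WT (23.8%, all peaks 30.0025%) and 13 of the 89 of Enl-T1 (14.6%, all peaks 13.4%). Gli3 had more of them than any other member, 12 in Enl-WT and 6 in Enl-T1, and Ihh, Smo and Gli1 had none. Shh had one in Enl-WT, near its 3′ end (chr5:28457774-28458667), at 3.82 CPM of all peak counts (3.37 to 4.31). The highest of Enl-T1 lay within Ptch1 (chr13:63569107-63569789) at 6.16 CPM (5.52 to 6.85). Counts of the other library under such peaks are unknown here, so these are no differences in level.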

How the data were processed

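The deposited values are raw counts per peak and barcode, not normalised, which the authors made with Cell Ranger ATAC 2.1.0 on mm10, each library having its own peak list. Of the deposited values, 80.1% and 81.2% were 2, so 2 counts stand for about 1 fragment, and intervals were taken on counts divided by 2. Counts in peaks totalled 138176616 in Enl-WT and 110265593 in Enl-T1. The study kept barcodes by fragments, share in peaks, blacklist share and TSS enrichment and transferred labels from RNA-seq. Only a count filter could be applied here.

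Shared regions join peaks of both libraries that touch by 1 bp or more (bedtools 2.31.1). Nuclei of both libraries were clustered together without integration (latent semantic indexing, components 2 to 30, 15 neighbours, leidenalg 0.10.2, resolution 1, 20 clusters). A cluster took a class where its markers averaged at least 0.4 log2 over the median cluster, at least 3 were raised by 0.5 log2 at 5 CPM or more, and the lineage led the next by 0.1, with further checks on depth, on the share of the 100 top regions and on leading genes. Marker lists under 5 genes had to be raised in full, a rule that, like the scores, was chosen once the clusters were known. Doublets were not removed in the main values.

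Counts were summed per library and class, and ratios have exact conditional 95% intervals on fragments, tested on simulated data. A gene's window was its body and 2 kb upstream. Named were all 9 members, up to 5 genes per class of the further list past 0.5 log2 with an interval that left out 0, up to 3 member regions per class and direction, the 5 genes most like Shh, Gli1, Ptch1 and Hhip, and sequences with the GLI motif. Other regions and the Shh, Ihh and Hhip sequences were chosen after their values were seen. Members and lists were chosen with earlier results of these data known. Alternatives covered scaling (edgeR 4.0.16 for TMM), depth, window, region matching, naming, doublets, fold and thinning, and, chosen after seeing the data, scaling per kb, single peak pairs and equal weighting of clusters.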

Additional observations from a re-analysis of the deposited data

Results flagged for a closer look

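The intronic Gli3 region 244 kb from the start was past 0.5 log2 in opposite directions in 2 classes, with a log2 ratio of Enl-T1 to Enl-WT of −1.05 (−1.63 to −0.48) in progenitor-like nuclei, at 4.69 and 2.26 CPM, and of 0.78 (0.01 to 1.57) in stroma-like nuclei, at 1.30 and 2.22 CPM from 48 and 79 counts. The difference between the classes was not tested. In the progenitor-like cluster with at least 50 nuclei of each library the region was at 4.72 and 6.47 CPM, the latter from 6 counts.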

How the results depend on the processing

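Over 44 pairs of a member and a class, 2 were past 0.5 log2 upwards and 4 downwards. Of 644 values of these pairs under alternative settings, 569 kept their sign and 557 lay within the interval of the reported value. Of those that turned, 61 belonged to pairs within 0.5 log2 whose interval contained 0, and the 14 others are given in the next paragraph. The pairs higher in Enl-T1 numbered 1 with TMM scaling, with a minimum of 5000 or 6000 counts per barcode, with regions matched at 80%, with the start window, with doublets removed or with at least 400 counts per gene, 0 at resolution 0.5 or a fold of 1, 4 by shares of thinned nuclei, 5 with a gate per nucleus or per kb, and 6 at a fold of 0.3. The pairs lower in Enl-T1 numbered 0 with regions matched at 80% or the start window, where Ihh had no region, 1 per kb or over single peak pairs, 7 at a fold of 0.3 or with clusters weighted equally, and 2 at a fold of 1.

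Among pairs past 0.5 log2 or with an interval that left out 0, ratios per kb turned to 0.70 (Ihh, progenitor), 0.40 (Ihh, stroma), 0.073 (Ihh, endothelium), 0.089 (Sufu, stroma) and 0.00 (0.0046, Ptch1, ureteric epithelium). Over single peak pairs they turned to 0.23 (Ihh, progenitor), 0.50 (Ihh, ureteric epithelium) and 0.16 (Smo, stroma), and with regions matched at 80% to 0.12 (Smo, stroma). At the start window they turned to 0.10 (Ptch1, later nephron), 0.31 (Ptch1, ureteric epithelium), 0.0049 (Ptch1, endothelium) and −0.18 (Gli2, endothelium), and by thinned shares to 0.0071 (Ptch1, later nephron). For Ihh these settings divide by, or leave out, the wider peaks of Enl-WT. The cause of the others was not tested. Hhip stayed above 0 in 15 of 15 alternatives in progenitors (0.38 to 0.55), later nephron (0.38 to 0.83) and stroma (0.17 to 0.49). Scaling to all peaks moved every ratio up by 0.07 to 0.15 and TMM moved it down by 0.04 to 0.10. The further pathway genes were recounted only with these scalings, a minimum of 5000 or 6000 counts per barcode and regions matched at 80%. Under these settings their number past 0.5 log2 stayed within 1.5 times. By thinned shares, the highest class of a member was the same in 16 of 18 cases. Classes under other minimum counts kept the names of the main clusters. Depth limits the later nephron of Enl-T1, with 2076102 counts, and every region under 100 counts. No paired analysis was possible because each group has 1 library.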

Other observations

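Of the clusters left unnamed, one held 692 Enl-WT nuclei and 3 Enl-T1 nuclei and had raised 6 of 7 podocyte markers. In its Enl-WT nuclei Sufu was at 284 CPM (269 to 301), Gli2 at 172 CPM (160 to 185), Gli1 at 43.2 CPM (37.2 to 49.8) and Shh at 5.73 CPM (3.71 to 8.46). A further one held 188 and 526 nuclei of low depth, and Hhip was there at 69.7 CPM in Enl-WT and 39.7 CPM in Enl-T1 (log2 ratio −0.81, −1.57 to −0.03), while in an unnamed one of 93 and 138 nuclei it was at 17.9 and 52.2 CPM (1.55, 0.20 to 3.09). These values are given with no comparison to the named classes.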
